A study of Mus musculus with 28 samples.

Results

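The 7 genes described here encode receptors of the TNF receptor superfamily that T cells carry: *Tnfrsf18* (GITR, the target of the αGITR antibody), *Tnfrsf9* (4-1BB), *Tnfrsf4* (OX40), *Tnfrsf1b* (TNFR2), *Tnfrsf1a* (TNFR1), *Tnfrsf25* (DR3) and *Cd27*. They were chosen by symbol, with earlier results of these data known, and all 7 were found among the 53801 features of the deposited table. Receptors of this family are engaged by trimeric ligands, many of them displayed by antigen-presenting cells, and pass the signal to TRAF adaptors and on to NF-κB. TNFR1 and DR3 also carry a death domain, which recruits the adaptor TRADD. Treg cells are known for constitutive GITR and TNFR2, and GITR, OX40 and 4-1BB are known to be raised on T cells activated through their antigen receptor.

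Bulk RNA-seq was performed on Treg cells sorted from CT2A tumors in the forebrain or from spleens of GBM-bearing C57BL/6 mice, where CT2A is a murine glioma cell line. The mice received either IgG2a, the isotype control, or αPD1 + αGITR, with 4 doses of 250 µg every 3 days once tumors measured 2 mm3, and tissue was taken 2 days after the last dose. All groups, spleens included, therefore came from tumor-bearing mice that had received antibody. The sort took TCR+CD4+CD25hi CD127lo cells and discarded TCR+CD8+ cells. By the sample description each spleen or tumor sample came from a different mouse. The authors give 5 IgG2a and 7 αPD1 + αGITR animals for the RNA-seq, whereas 7 and 9 spleens are described. Some spleens share a label number, such as IgG2a replicates 79_a to 79_d. The tests treat each library as independent. Of the 28 libraries described, 27 were used: for the spleen 7 with IgG2a and 8 with the antibody pair, and for GBM 5 with IgG2a and 7 with the antibody pair. One column of values carries no name and was not assigned, which leaves out 1 of the 9 treated spleens.

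Values are given as TPM, a transcript abundance scaled for gene length and to the same total in each library, so levels of different genes can be set side by side. Foxp3, the transcription factor that defines Treg cells, was listed between 21.5 and 440.4 TPM in every library. The CD8 T cell markers Cd8a and Cd8b1 summed to at most 36.6 TPM. The libraries were uneven. Between 7702 and 17460 genes had a TPM above 1, and 7 T cell markers (Cd3d, Cd3e, Cd3g, Cd4, Cd2, Cd28 and Lck) summed to 209 to 2543 TPM. The 4 libraries with a T cell marker sum under 400 TPM were all splenic, namely IgG2a replicates 79_a and 79_d and αPD1 + αGITR replicates 70_a and 72_b. In these the 10 highest features held 78.3%, 76.1%, 76.5% and 68.4% of the TPM, in that order. Over all libraries this share ran from 31.9% to 78.3%. Its median was 65.0% in control spleens, 58.4% in control tumors, 58.2% in treated spleens and 47.1% in treated tumors. The total is fixed, so a larger share leaves less TPM for all other genes. Macrophage and microglia markers (10 genes) summed to 4310 TPM in GBM IgG2a replicate 79_a and to 1792 TPM in GBM αPD1 + αGITR replicate 73_a, against 9.86 to 300.3 TPM in the other libraries. In bulk samples a difference in the number of cells of a type cannot be told apart from a difference in RNA per cell.

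Of the 7 genes, 5 lie on chromosome 4 and 2 on chromosome 6 (GRCm38, the assembly of mm10, GENCODE M21 annotation). *Tnfrsf4* (chr4:156013843-156016612, plus strand) and *Tnfrsf18* (chr4:156026164-156028895, plus strand) are near neighbours, 9551 bases apart with 2 other annotated genes between them. *Tnfrsf9* (chr4:150914562-150946102, plus strand), *Tnfrsf25* (chr4:152115934-152120119, plus strand) and *Tnfrsf1b* (chr4:145213463-145246870, minus strand) are the other members on chromosome 4. *Cd27* (chr6:125232622-125237010, minus strand) and *Tnfrsf1a* (chr6:125349362-125362484, plus strand) are the chromosome 6 members. *Tnfrsf18* shares 414 of its 1524 exonic bases with *Gm16008* on the opposite strand, and Smart-Seq2 does not mark strand, so reads from the shared part cannot be told apart. *Gm16008* itself was listed at no more than 20.3 TPM.

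The start regions of the 4 genes with the largest tissue differences described below are shown, because these genes lay higher in GBM together. Each sequence runs 5′ to 3′ on the gene's strand from 250 bases before to 50 bases after a RefSeq start (GRCm38.p6), and capitals mark matches to an NF-κB consensus or an AP-1 motif on either strand.
Tnfrsf18, chr4:156026072-156026371, plus strand: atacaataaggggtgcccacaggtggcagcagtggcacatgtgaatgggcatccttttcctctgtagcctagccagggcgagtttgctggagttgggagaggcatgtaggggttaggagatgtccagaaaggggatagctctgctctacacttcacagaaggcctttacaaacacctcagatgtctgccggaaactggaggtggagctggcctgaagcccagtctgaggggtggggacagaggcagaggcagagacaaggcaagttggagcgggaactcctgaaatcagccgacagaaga
Tnfrsf4, chr4:156013445-156013744, plus strand: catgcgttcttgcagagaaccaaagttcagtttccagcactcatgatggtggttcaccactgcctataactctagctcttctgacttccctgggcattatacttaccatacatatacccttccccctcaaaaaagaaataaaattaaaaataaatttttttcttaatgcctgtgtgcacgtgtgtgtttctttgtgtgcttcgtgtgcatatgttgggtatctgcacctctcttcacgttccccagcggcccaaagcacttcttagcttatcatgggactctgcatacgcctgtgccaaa
Tnfrsf1b, chr4:145246821-145247120, minus strand: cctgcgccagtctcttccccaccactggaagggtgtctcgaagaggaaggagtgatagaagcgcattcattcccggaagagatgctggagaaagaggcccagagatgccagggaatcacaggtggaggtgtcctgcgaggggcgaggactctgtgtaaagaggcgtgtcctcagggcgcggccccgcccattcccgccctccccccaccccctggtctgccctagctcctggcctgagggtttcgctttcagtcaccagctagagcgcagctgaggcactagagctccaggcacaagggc
Tnfrsf9, first start, chr4:150919905-150920204, plus strand: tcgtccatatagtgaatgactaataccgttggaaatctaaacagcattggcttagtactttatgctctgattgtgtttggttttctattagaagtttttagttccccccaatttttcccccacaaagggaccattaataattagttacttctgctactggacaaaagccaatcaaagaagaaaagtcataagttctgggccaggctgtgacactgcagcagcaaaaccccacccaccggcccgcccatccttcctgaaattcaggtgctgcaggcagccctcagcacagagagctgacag
Tnfrsf9, second start, chr4:150927749-150928048, plus strand: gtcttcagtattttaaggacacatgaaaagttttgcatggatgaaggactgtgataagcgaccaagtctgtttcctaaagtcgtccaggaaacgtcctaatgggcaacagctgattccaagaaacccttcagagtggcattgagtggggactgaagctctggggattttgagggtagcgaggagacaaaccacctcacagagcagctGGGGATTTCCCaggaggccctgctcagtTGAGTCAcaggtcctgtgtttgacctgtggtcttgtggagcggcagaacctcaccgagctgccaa

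Among the 9 windows of the 7 genes (*Tnfrsf9* and *Tnfrsf25* have 2 starts each), the second *Tnfrsf9* window was the one with matches. It held the NF-κB consensus at -43 to -34 (GGGGATTTCC) and, overlapping it, at -42 to -33 (GGGATTTCCC), counted from the start, and the AP-1 motif TGANTCA at -15 to -9 (TGAGTCA). Of all 32851 windows in the reference, 4.51% held the NF-κB consensus and 7.81% the AP-1 motif. The forkhead motif GTAAACA, held by 3.65% of all windows, was in none of the 9. These 3 motifs were kept from a wider set that had been looked at, and a match is a description of the sequence only. The *Tnfrsf1b* window had 13 CpG dinucleotides and 62.7% GC, against 4 and 55.3% for *Tnfrsf18* and medians of 7 and 52.7% over all windows.

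To ask how the receptors differ between tumor and periphery without therapy, GBM and splenic Treg cells of the IgG2a groups were compared. *Tnfrsf18*, *Tnfrsf9*, *Tnfrsf4* and *Tnfrsf1b* had higher mean levels in GBM Treg cells, by 4.36- to 11.2-fold in mean TPM. *Tnfrsf1a*, *Tnfrsf25* and *Cd27* had ranges that overlapped between the tissues, with mean TPM in GBM higher for *Tnfrsf1a* and lower for *Tnfrsf25* and *Cd27*. *Tnfrsf9* alone rose by limma on log2(TPM + 1) with Benjamini-Hochberg adjustment, where 0.488% of the 7380 genes tested were called higher. *Tnfrsf9*, *Tnfrsf4* and *Tnfrsf1b* were the members whose groups did not overlap, a pattern held by 1.25% of the genes tested. All 7 members met the filter, a mean above 10 TPM, in both groups of each comparison. At an unadjusted p under 0.05, 4 of the 7 members were higher, beside 7.63% of all genes. The *Tnfrsf9* call was lost when no filter was put on low values (limma adjusted p = 0.148). It was also lost with the label numbers as a replicate block (log2 fold change 3.96, limma adjusted p = 0.251). In all 36 genes were called higher and 6 lower, against 32 and 16 with TMM-type scaling, which took the median of all genes from 0.48 to 0.20. Rescaling without the 10 features with the highest means took the log2 fold change of *Tnfrsf18* from 3.17 to 2.87. That of *Tnfrsf9* went from 4.36 to 4.24, that of *Tnfrsf4* from 3.52 to 3.31 and that of *Tnfrsf1b* from 2.20 to 1.87.

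*Tnfrsf18* was listed in the 5 GBM libraries at 145, 187, 244, 295 and 348 TPM, and in the 7 splenic libraries between 5.92 and 158 TPM with a median of 24.1 TPM. The ranges overlapped through 1 splenic library, replicate 79_b, which stood above the lowest GBM library. The log2 fold change was 3.17 (standard error 0.80, limma adjusted p = 0.0531), and the exact permutation test gave p = 0.00505. Without replicate 79_b the log2 fold change was 3.61 (limma adjusted p = 0.0137).

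*Tnfrsf9*, known as an activation-induced co-stimulatory receptor, showed the largest difference of the members. Its GBM libraries held 143, 203, 228, 262 and 264 TPM, and the splenic ones 0.55 to 66.9 TPM with a median of 10.7 TPM. Every GBM library lay above the highest splenic one. Its log2 fold change was 4.36 (standard error 0.86, limma adjusted p = 0.00790).

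*Tnfrsf4* was the most abundant member in GBM, at 260, 314, 390, 634 and 1056 TPM. In spleen it ranged from 0.60 to 226 TPM with a median of 66.7 TPM. The 2 ranges did not overlap, though the lowest GBM library, replicate 78_a, lay close to the highest splenic one. The log2 fold change was 3.52 (standard error 0.93, limma adjusted p = 0.0680; exact permutation p = 0.00631). Leaving out splenic replicate 79_b gave 3.93 (limma adjusted p = 0.0253), and leaving out splenic replicate 79_d, the lowest library, gave 2.74, which was not called.

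*Tnfrsf1b*, whose product TNFR2 responds well to membrane-bound TNF, had the smallest SD of log2(TPM + 1) of these 4 genes in both groups (0.70 in spleen and 0.35 in GBM). It was listed at 102.1, 114, 135, 158 and 186 TPM in GBM and between 15.6 and 63.6 TPM in spleen, with a splenic median of 31.7 TPM. The log2 fold change was 2.20 (standard error 0.72, limma adjusted p = 0.191). The groups were fully separated, and the exact permutation test reached p = 0.00126, the smallest value that 5 libraries against 7 allow.

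The remaining members showed no such separation. *Tnfrsf1a*, the death domain receptor for TNF, was listed at 0.26, 17.2, 30.2, 56.2 and 72.7 TPM in GBM and between 0 and 35.6 TPM in spleen (log2 fold change 0.51, standard error 1.01). *Tnfrsf25* was at 0.10, 3.06, 10.6, 14.5 and 30.8 TPM in GBM against 0.76 to 88.4 TPM in spleen (log2 fold change -1.75, standard error 0.98, limma adjusted p = 0.561; -2.40 to -1.05 with single libraries left out and -2.65, adjusted p = 0.129, with quantile normalization). *Cd27*, a receptor that resting T cells already carry, was at 36.2, 71.0, 87.0, 107 and 137 TPM in GBM and 7.91 to 299.6 TPM in spleen (log2 fold change 0.19, standard error 0.84, opposite in sign to the difference in mean TPM), and its sign turned in 8 of 25 alternatives. The GBM library with the fewest genes detected (7702) held the highest *Tnfrsf9*, *Tnfrsf4* and *Cd27* and the lowest *Tnfrsf18*, *Tnfrsf1a* and *Tnfrsf25* of its group.

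**Figure D1:**
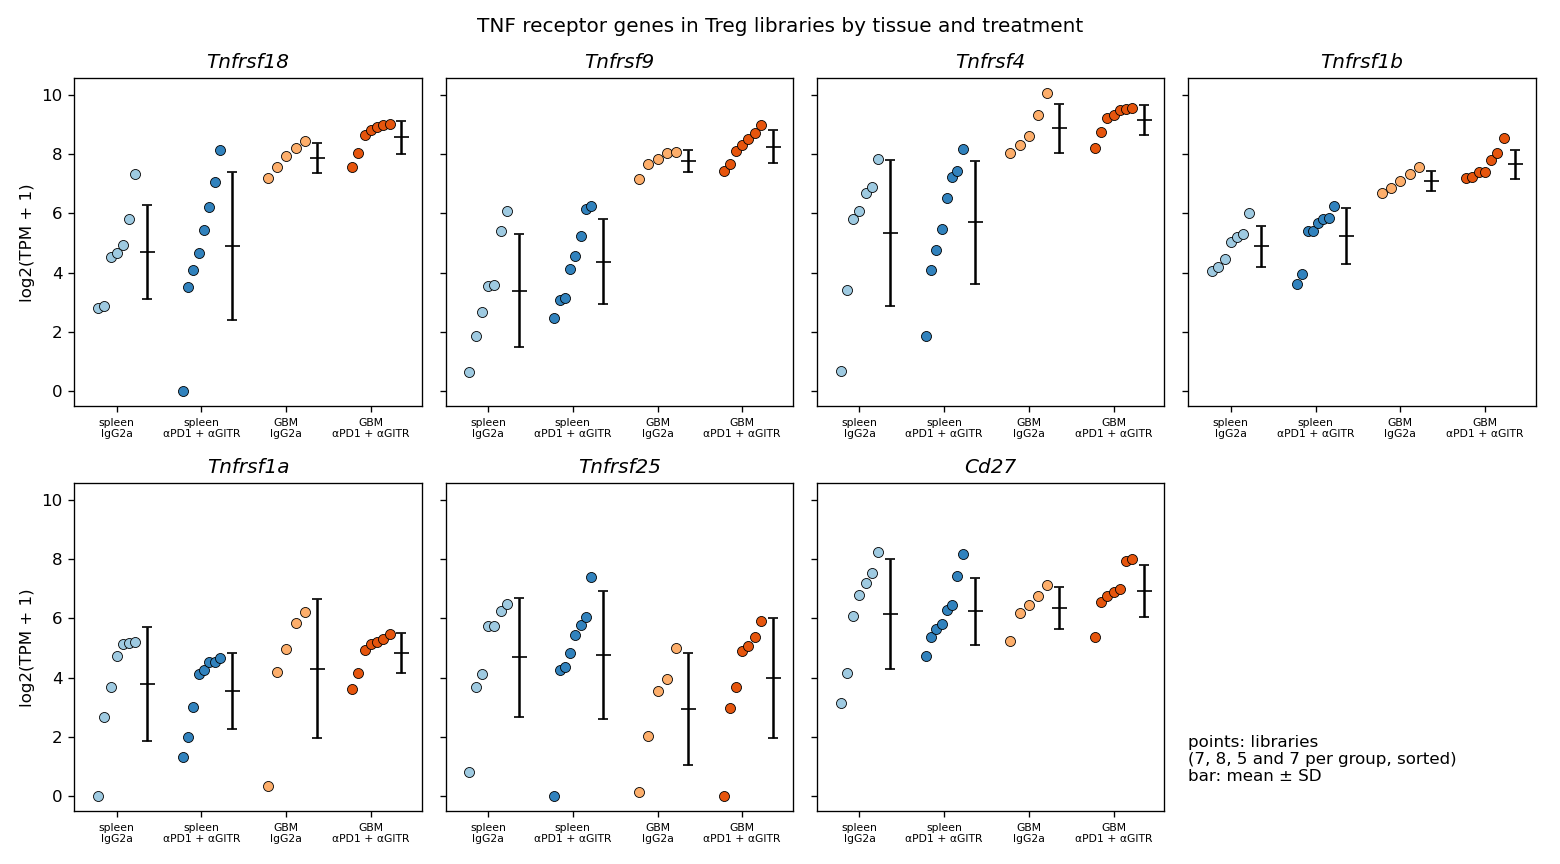
Level of each of the 7 genes as log2(TPM + 1) in splenic and GBM Treg cells after IgG2a or αPD1 + αGITR; each point is 1 library (7, 8, 5 and 7 per group, sorted by value) and the bar is the mean with its SD. For *Tnfrsf9* and *Tnfrsf1b* all GBM points lie above all splenic points, whereas *Tnfrsf1a*, *Tnfrsf25* and *Cd27* overlap between tissues.

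The same tissues were then compared in mice that had received αPD1 + αGITR, with no library in common with the comparison above. *Tnfrsf18*, *Tnfrsf9*, *Tnfrsf4* and *Tnfrsf1b* all rose in GBM Treg cells by limma. These 4 calls among 7 members stand beside 15.8% of 7506 genes called higher in this comparison. *Tnfrsf1a* and *Cd27* had positive estimates and *Tnfrsf25* a negative one, and none of the 3 was called. Over all genes 1189 were called higher and 121 lower, against 263 and 337 with TMM-type scaling, under which the 4 members were also called with smaller log2 fold changes of 3.00 for *Tnfrsf18*, 3.07 for *Tnfrsf9*, 2.65 for *Tnfrsf4* and 1.58 for *Tnfrsf1b*. *Tnfrsf1a* came to 0.53 there.

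*Tnfrsf18* ranged from 186 to 515 TPM in the 7 GBM libraries, with a median of 450.2 TPM, and from 0 to 278 TPM in the 8 splenic libraries, with a median of 33.6 TPM. Replicate 72_b of the treated spleens was listed at 0, while replicate 74_a, at the other end, lay above 2 of the GBM libraries. The log2 fold change was 3.67 (standard error 0.80, limma adjusted p = 0.00562; exact permutation p = 0.00124). Without replicate 72_b it was 2.97 and was called. Of the 4 calls it was the one lost in an alternative, with an adjusted p of 0.0593 when no filter was put on low values.

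*Tnfrsf9* in treated mice lay between 172 and 503 TPM in GBM (median 314 TPM) and between 4.50 and 74.5 TPM in spleen (median 19.5 TPM). The log2 fold change was 3.87 (standard error 0.57, limma adjusted p = 0.000236). *Tnfrsf4* lay between 296 and 747 TPM in GBM (median 629 TPM) and between 2.62 and 289 TPM in spleen (median 66.9 TPM), so that the lowest GBM library, replicate 74_a, and the highest splenic one nearly met. The log2 fold change was 3.45 (standard error 0.70, limma adjusted p = 0.00303).

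*Tnfrsf1b* lay between 145 and 369.8 TPM in GBM (median 167 TPM) and between 11.2 and 75.5 TPM in spleen (median 45.9 TPM). Its log2 fold change of 2.40 (standard error 0.48, limma adjusted p = 0.00297) came with the smallest exact permutation p that 7 libraries against 8 allow, p = 0.000155. *Tnfrsf9*, *Tnfrsf4* and *Tnfrsf1b* were again the members without overlap, against 2.96% of the genes tested.

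*Tnfrsf1a* was at 11.3 to 43.6 TPM in treated GBM and 1.47 to 24.1 TPM in treated spleen, with 5 of 7 GBM libraries above every splenic one. Its log2 fold change of 1.28 (standard error 0.59) had an exact permutation p of 0.0319 and did not pass the adjusted limma threshold (adjusted p = 0.106). *Tnfrsf25* was at 0 to 58.9 TPM against 0 to 166 TPM (log2 fold change -0.78, standard error 0.90), and the estimate ran from -1.46 without splenic replicate 72_c to -0.11 without GBM replicate 73_a. *Cd27* was at 40.8 to 252 TPM against 25.4 to 288 TPM (log2 fold change 0.69, standard error 0.54).

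The receptors were also set against T cell genes inside each library, since the summed level of these differed between the tissues in its median. Of the 7 T cell markers 0 were called after IgG2a (0.488% of all genes higher) and 3 rose after αPD1 + αGITR (15.8% of all genes), and of 6 Treg markers 0 and 4. *Foxp3* had log2 fold changes of 0.30 (limma adjusted p = 0.888) and 1.19 (adjusted p = 0.0936). The T cell marker sum had a median of 699 TPM in spleen and 1154 TPM in GBM after IgG2a, and of 700.4 TPM and 1688 TPM after αPD1 + αGITR. The median log2 fold change of all genes tested was 0.48 and 0.95 in the same 2 tissue comparisons. When the 4 splenic libraries with low T cell marker sums were left out, an alternative chosen after seeing the data, that median fell to 0.05 and 0.66. *Tnfrsf9* then rose in both comparisons with smaller differences (log2 fold change 3.50, limma adjusted p = 0.0257, after IgG2a and 3.34, adjusted p = 0.000812, after therapy). Those of *Tnfrsf18*, *Tnfrsf4* and *Tnfrsf1b* shrank as well. After IgG2a they came to 2.43, 2.20 and 1.90, none called (limma adjusted p = 0.106, 0.106 and 0.238). After therapy they came to 2.72, 2.55 and 1.91, all 3 called. *Tnfrsf1a* and *Cd27* did not shrink after IgG2a and came to 0.55 and -0.81, neither called. The count of members called stayed at 1 and 4.

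Relative to *Foxp3*, *Tnfrsf9* was the member that separated the tissues in both treatment groups, a separation held by 1.18% of the genes tested after IgG2a and 0.306% after therapy. Its TPM was 0.952 to 1.63 times that of *Foxp3* in GBM and 0.00969 to 0.189 times in spleen after IgG2a, and 0.600 to 2.54 times against 0.0323 to 0.432 times after αPD1 + αGITR. *Tnfrsf18* was at 0.780 to 3.00 times *Foxp3* in GBM and 0.104 to 0.444 times in spleen after IgG2a, without overlap, but the treated groups overlapped (0.648 to 2.39 times against 0 to 1.72 times). For *Tnfrsf4* and *Tnfrsf1b* the ratios to *Foxp3* overlapped in each comparison. Against the T cell marker sum, *Tnfrsf9* and *Tnfrsf4* were separated in both treatment groups (0.759% and 0.533% of the genes tested), the latter narrowly in treated mice (0.175 to 0.594 in GBM and 0.0116 to 0.171 in spleen). *Tnfrsf1b* was separated in treated mice (0.0963 to 0.145 against 0.0328 to 0.0682) and overlapped after IgG2a. *Tnfrsf18* overlapped in both, at 0.0622 to 0.269 in GBM against 0.0272 to 0.0791 in spleen after IgG2a. In treated mice it was at 0.110 to 0.354 against 0 to 0.165.

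**Figure D2:**
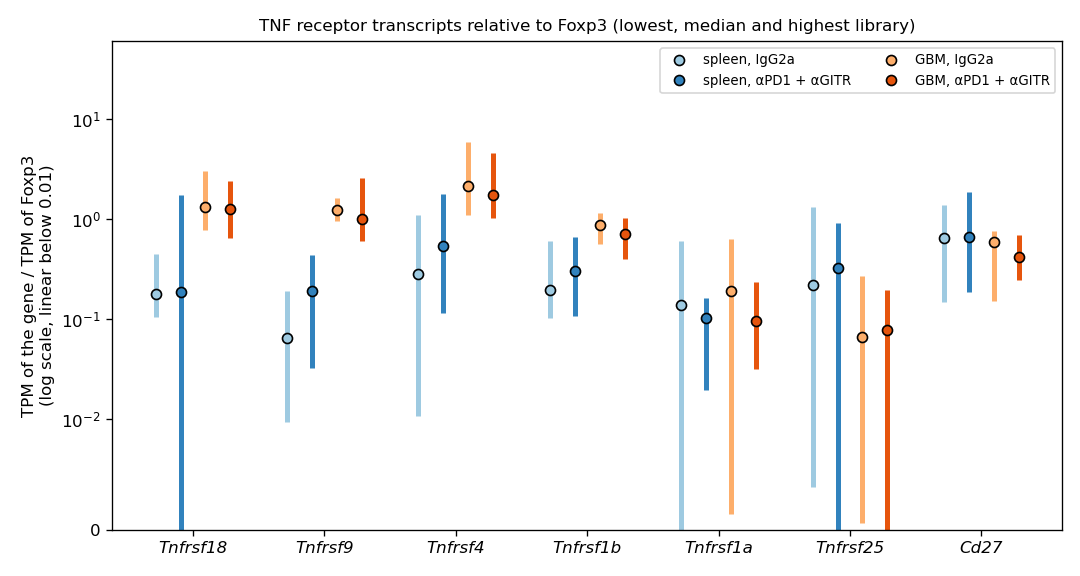
TPM of each gene divided by the TPM of Foxp3 in the same library, on a log axis that is linear below 0.01; lines run from the lowest to the highest library of a group and points are medians. The median ratio of *Tnfrsf9* was 1.23 and 0.990 in GBM after IgG2a and αPD1 + αGITR, against 0.0637 and 0.187 in spleen, while that of *Cd27* was 0.417 to 0.664 in all 4 groups.

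By limma 0 of 8 tested macrophage and microglia markers were called after IgG2a, beside 0.488% of all genes higher, and 1 of 6 after αPD1 + αGITR, beside 15.8%. Of the 8, 6 met the filter on low values in GBM alone, as did the 1 called, *C1qa*, a complement gene. The whole list of 10 genes summed to 39.8 to 4310 TPM in GBM and 21.6 to 66.9 TPM in spleen after IgG2a, and to 24.96 to 1792 TPM and 9.86 to 259 TPM after αPD1 + αGITR. Without the GBM library with the highest sum in each treatment, *Tnfrsf9* had a log2 fold change of 4.51 (limma adjusted p = 0.0161) after IgG2a, and the count of calls in treated mice stayed at 4. Medians differed between genes of the list. The microglia gene *P2ry12* had a median of 0 in both splenic groups and of 0.70 and 0.85 TPM in GBM. Its highest GBM library after IgG2a held 29.9 TPM. *C1qa* had medians of 0.73 and 4.29 TPM in spleen and 14.6 and 26.4 TPM in GBM, after IgG2a and αPD1 + αGITR. For *Lyz2* they were 7.40 and 16.9 TPM in spleen and 35.5 and 7.45 TPM in GBM. Neuron and glia markers (10 genes) summed to 17.8 to 171 TPM in GBM (median 52.1 TPM) and 4.51 to 34.0 TPM in spleen (median 7.79 TPM) after IgG2a, and to 3.40 to 105 TPM and 8.95 to 98.5 TPM after αPD1 + αGITR. Their part in the tissue differences of the receptors was not tested.

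Inside a library the receptors were ordered differently in the 2 tissues. In splenic Treg cells after IgG2a *Cd27* had the highest mean (118 TPM), above *Tnfrsf4* in 6 of 7 libraries, followed by *Tnfrsf4* (82.4 TPM), *Tnfrsf18* (42.9 TPM) and *Tnfrsf25* (42.2 TPM), with *Tnfrsf9* (19.7 TPM) last. In GBM Treg cells after IgG2a *Tnfrsf4* (531 TPM) exceeded *Tnfrsf18* (244 TPM) in 5 of 5 libraries, *Tnfrsf9* (220.0 TPM) exceeded *Tnfrsf1b* (139 TPM) in 5 of 5, and *Tnfrsf25* (11.8 TPM) was last. The order of *Tnfrsf18* and *Tnfrsf9* was not fixed there, since *Tnfrsf18* lay above in 3 of 5. Treated GBM libraries had the same order of means, with *Tnfrsf4* (591 TPM) above *Tnfrsf18* (397 TPM) in 7 of 7 and *Cd27* (139.6 TPM) above *Tnfrsf1a* (29.8 TPM) in 7 of 7. Neighbouring members in spleen were mostly not separated, as with *Tnfrsf18* and *Tnfrsf25*, where the first lay above the second in 4 of 7 libraries after IgG2a and in 3 of 8 after αPD1 + αGITR.

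Levels were also expressed as a share of the summed TPM of the 7 genes, which does not change with the scaling of a library. By this measure some members took different parts in the 2 tissues. *Cd27* made up 11.4% to 39.2% of the sum in spleen and 4.00% to 9.44% in GBM after IgG2a, without overlap. After αPD1 + αGITR it made up 12.3% to 50.4% against 2.28% to 12.1%. There the ranges nearly met (12.32% in the lowest splenic and 12.13% in the highest GBM library). *Tnfrsf9* made up 0.372% to 8.85% in spleen and 10.2% to 25.2% in GBM after IgG2a, and 3.64% to 10.5% against 12.96% to 26.5% after αPD1 + αGITR, also without overlap. *Tnfrsf25* had median shares of 11.2% and 15.5% in the splenic groups and 0.897% and 1.52% in the GBM groups. The share of *Tnfrsf1b* was alike, with medians between 10.5% and 14.0% in all 4 groups. Shares add up to a fixed total, so a lower share of 1 gene can come with an unaltered level. How often the shares of other genes separate the tissues was not computed. The summed TPM itself was 61.1 to 886 in spleen and 905 to 1718 in GBM after IgG2a, and 79.4 to 933 and 1016 to 2088 after αPD1 + αGITR.

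**Figure D3:**
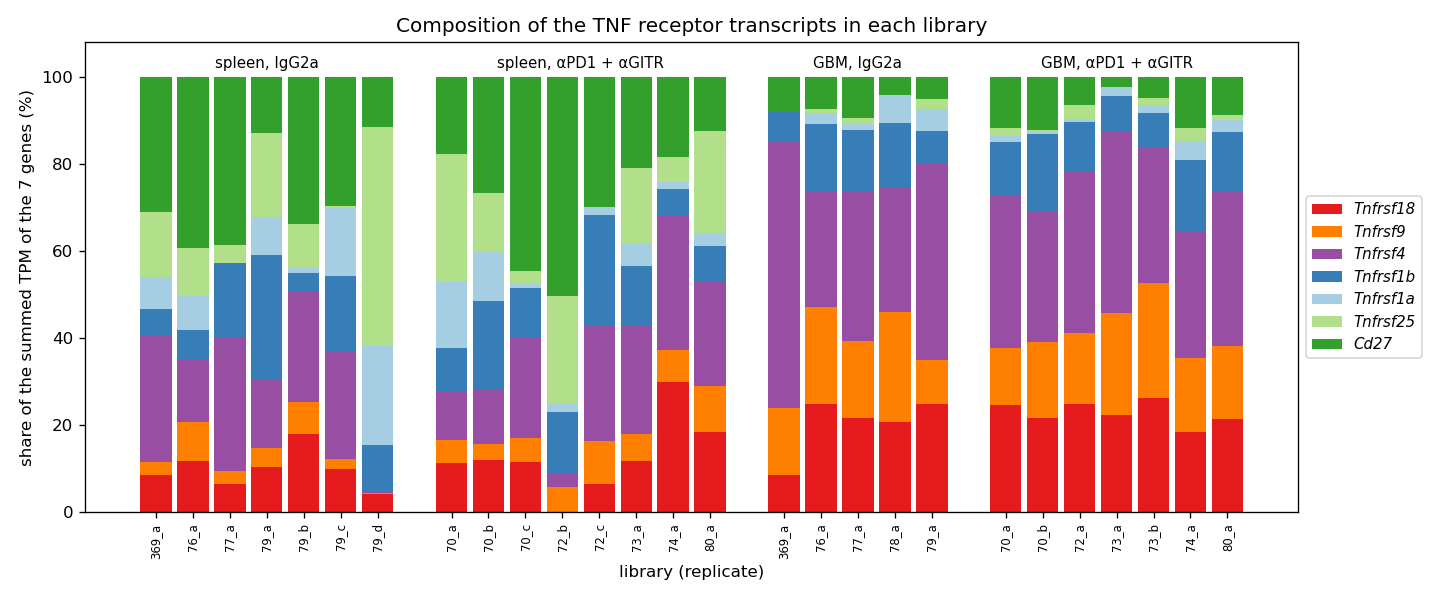
Share of each gene in the summed TPM of the 7 genes, in percent, with 1 bar per library and libraries grouped by tissue and treatment. *Cd27* and *Tnfrsf25* take more of the bars of splenic Treg cells than of GBM Treg cells by their medians, *Tnfrsf9* takes less, and *Tnfrsf4* is a large part of both (medians of 23.5% to 34.9%).

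To ask whether therapy that includes an antibody against GITR changed the receptor transcripts, αPD1 + αGITR was compared with IgG2a within GBM. All 7 estimates were positive (0.28 to 1.05 on the log2 scale), but with TMM-type scaling 5 of them fell below 0, between -0.01 for *Tnfrsf18* and -0.41 for *Tnfrsf4*. By limma none of the 7 was called at an adjusted p under 0.05, as for all 7848 genes tested, and none passed an unadjusted p under 0.05, which 22.3% of the genes did. The median over the members was 0.55, beside 0.62 over all genes tested. No member had all treated libraries above all control libraries, a pattern held by 1.77% of the genes.

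*Tnfrsf18* itself lay at 145 to 348 TPM after IgG2a and 186 to 515 TPM after therapy, where 5 of 7 treated libraries stood above every control library and replicates 74_a and 80_a did not. Its log2 fold change was 0.69 with a 95% interval from -0.11 to 1.49 (exact permutation p = 0.0606). *Tnfrsf1b* had a log2 fold change of 0.55 (95% interval -0.26 to 1.37; exact permutation p = 0.0568), with 3 of 7 treated libraries above every control library. *Tnfrsf9* had 0.49 (-0.31 to 1.28) and *Tnfrsf4*, the most abundant, 0.28 (-0.54 to 1.11). Each of these 4 intervals holds 0 and a rise of 1 log2 unit. The estimates of *Tnfrsf25* (-0.98 to 3.08), *Tnfrsf1a* (-1.16 to 2.20) and *Cd27* (-0.47 to 1.63) were less precise. *Foxp3* had a log2 fold change of 0.79 in this comparison (limma adjusted p = 0.219), and the median ratio of *Tnfrsf18* to *Foxp3* was 1.33 after IgG2a and 1.24 after therapy.

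In splenic Treg cells αPD1 + αGITR and IgG2a gave overlapping values for every member. None of the 7 was called by limma and none passed an unadjusted p under 0.05, which 2.53% of the 6634 genes tested did. *Tnfrsf18* lay at 5.92 to 158 TPM after IgG2a and 0 to 278 TPM after therapy, with a log2 fold change of 0.19 (95% interval -1.70 to 2.08). *Tnfrsf9* had the largest estimate, 0.98 (95% interval -0.69 to 2.65; exact permutation p = 0.273), and 2 of 8 treated libraries stood above every control library. The splenic libraries varied among themselves, with an SD of log2(TPM + 1) of up to 2.50 for *Tnfrsf18* and 2.47 for *Tnfrsf4*, against 0.50 and 0.82 in GBM after IgG2a. For *Tnfrsf1a* the SD was instead highest in GBM after IgG2a (2.35), and for *Tnfrsf25* it was 1.89 to 2.17 in all 4 groups. The direction of *Tnfrsf18*, *Tnfrsf4*, *Tnfrsf1a*, *Tnfrsf25* and *Cd27* turned under at least 1 alternative.

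The difference of the treatment effects between the tissues was tested as an interaction over all 4 groups, and no member passed even an unadjusted p under 0.05, beside 12.2% of 8687 genes. The interaction was 0.50 (standard error 1.17) for *Tnfrsf18*, -0.49 (1.01) for *Tnfrsf9*, -0.06 (1.23) for *Tnfrsf4* and 0.20 (0.75) for *Tnfrsf1b* on the log2 scale. Across the 4 groups, the mean level of *Tnfrsf18* increased from spleen after IgG2a (42.9 ± 53.1 TPM, SD, n = 7) to spleen after therapy (71.9 ± 93.4 TPM, n = 8), GBM after IgG2a (244 ± 81.2 TPM, n = 5) and GBM after therapy (397 ± 127 TPM, n = 7). Of the neighbours in this order, the middle 2 differed by the exact permutation test (p = 0.0194), and the pairs within spleen (exact permutation p = 0.867) and within GBM did not pass 0.05. *Tnfrsf9*, *Tnfrsf4* and *Tnfrsf1b* had the same order of means. The 2 middle groups were fully separated for *Tnfrsf9* and *Tnfrsf1b* (exact permutation p = 0.00155 for each) and overlapped for *Tnfrsf4* (exact permutation p = 0.00855), and 0.613% of genes were separated in that direction. These middle groups differ in both tissue and treatment. These p-values are raw values out of 42 tests, for 7 genes and 6 pairs of groups.

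**Figure D4:**
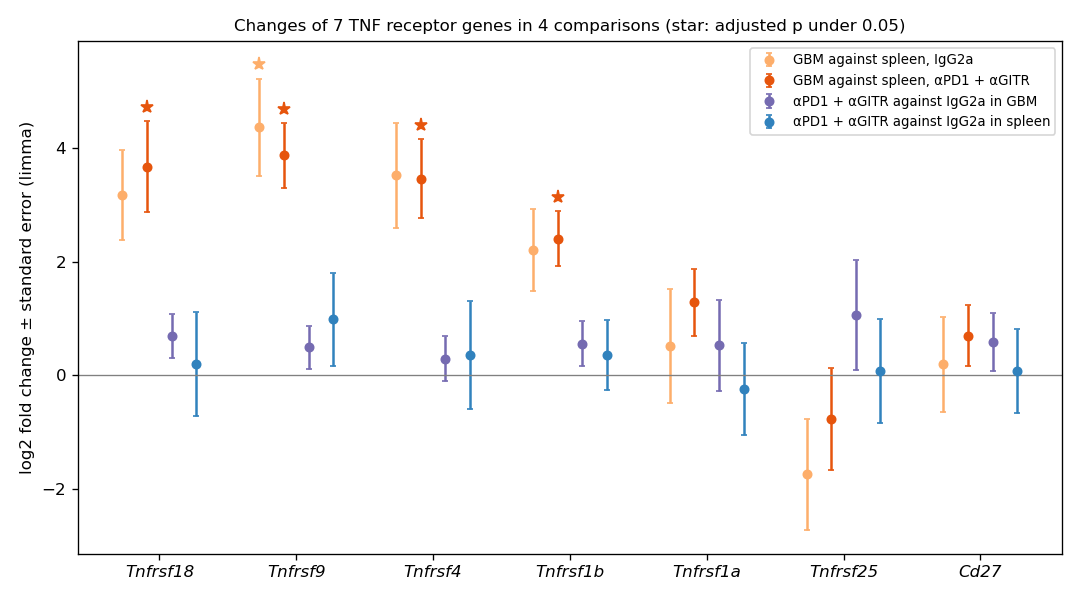
Log2 fold change with its standard error (limma on log2(TPM + 1)) for each gene in the 2 tissue comparisons and the 2 treatment comparisons; a star marks an adjusted p under 0.05. The stars are at *Tnfrsf9* after IgG2a (4.36) and at *Tnfrsf18*, *Tnfrsf9*, *Tnfrsf4* and *Tnfrsf1b* after αPD1 + αGITR (2.40 to 3.87), and no treatment comparison has one.

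The 7 ligands of these receptors had group medians of at most 20.8 TPM. *Tnfsf18* (GITR ligand) was listed at no more than 0.86 TPM in any library and at 0 in all 7 treated GBM libraries. *Tnfsf15* (the DR3 ligand) reached 1.82 TPM at most, and *Tnfsf4* (OX40 ligand) had a median of 0 in all 4 groups. *Cd70* (the CD27 ligand) was above 1 TPM in 1 of 7 and 1 of 8 splenic libraries and in 3 of 5 and 4 of 7 GBM libraries, after IgG2a and αPD1 + αGITR, and was too low to be tested. *Tnfsf9* (4-1BB ligand) was listed at 6.83 to 74.1 TPM in GBM and 0 to 3.76 TPM in spleen after IgG2a. After αPD1 + αGITR it was at 4.82 to 21.0 TPM against 0 to 4.54 TPM. It met the filter on low values through the GBM groups alone, where it was high, so its fit is not used here.

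*Tnf*, the ligand of both TNF receptors, was 1 of the 2 ligands tested in the treatment comparison within GBM. It was listed at 0 to 17.4 TPM after IgG2a (median 7.00 TPM) and at 8.12 to 61.7 TPM after αPD1 + αGITR (median 20.8 TPM). Its log2 fold change of 2.31 (standard error 0.79) did not pass the adjusted limma threshold (adjusted p = 0.133), and *Tnf* met the filter in the treated group alone. *Lta*, lymphotoxin alpha, had medians of 4.06 to 5.27 TPM in the 4 groups and was too low to be tested.

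Among 23 genes of adaptors and of the NF-κB system below the receptors, 20 were tested in each tissue comparison. After IgG2a none was called by limma and *Ripk1*, a kinase recruited by TNFR1, alone passed an unadjusted p under 0.05 (log2 fold change 1.96, adjusted p = 0.458), a gene that met the filter in GBM alone. *Nfkb1*, a NF-κB subunit, and *Nfkbib*, an NF-κB inhibitor, followed with 1.69 and 1.62. After αPD1 + αGITR 4 of the 20 rose in GBM, close to the 15.8% called higher among all genes. They were the NF-κB subunit gene *Nfkb2* (2.05, limma adjusted p = 0.0390), the inhibitors *Nfkbib* (2.02, adjusted p = 0.0447) and *Nfkbie* (2.45, adjusted p = 0.0191), and *Tnfaip3*, which encodes A20, a brake on NF-κB signaling (1.86, adjusted p = 0.0498). *Tnfaip3* met the filter in GBM alone, so that its call is conditional on its high group, and the other 3 met it in both tissues. The median over the list was 0.69 in that comparison, below the 0.95 of all genes tested. In spleen none of 20 and within GBM none of 19 was called for treatment, with 0 and 2 at an unadjusted p under 0.05, beside 2.53% and 22.3% of all genes. Within GBM the lowest limma p-values for treatment belonged to *Nfkbie* (1.39, adjusted p = 0.190), *Chuk*, a kinase of the NF-κB pathway that met the filter in 1 group only (1.95, adjusted p = 0.206), and *Tradd* (1.12, adjusted p = 0.326).

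Of 21 other receptors of the superfamily, 7 passed the filter on low values in the tissue comparison after IgG2a and 5 after αPD1 + αGITR. *Tnfrsf13b* (TACI, best known from B cells) was the 1 called of the 5, beside 15.8% of all genes, and was higher in treated GBM than in treated spleen at 49.3 to 114 TPM against 0.70 to 62.2 TPM (limma log2 fold change 2.47, adjusted p = 0.0145). B cell markers summed to 0.12 to 12.3 TPM in those GBM libraries and 1.91 to 31.0 TPM in those spleens. After IgG2a the lowest p-values were those of *Relt* (2.01), *Tnfrsf14* (1.60), which encodes the receptor HVEM, and *Tnfrsf12a* (1.83), with adjusted p-values of 0.539 to 0.585, and *Relt* and *Tnfrsf12a* met the filter in GBM alone. For treatment within GBM they were those of *Tnfrsf13b* (1.68, limma adjusted p = 0.188), *Tnfrsf14* (-0.62) and *Cd40* (-0.88), of which *Cd40* met the filter in the IgG2a group alone.

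Within groups the receptors did not vary independently. After each gene was centred on its group mean, Spearman's rho over the 27 libraries was 0.53 to 0.78 for the 10 pairs among *Tnfrsf18*, *Tnfrsf9*, *Tnfrsf4*, *Tnfrsf1b* and *Cd27*, with *Tnfrsf18* and *Tnfrsf9* the closest pair, and -0.22 to 0.49 for the 11 pairs with *Tnfrsf1a* or *Tnfrsf25*. The libraries share their scaling, and the median rho of the same centred values with all 8687 genes was itself 0.33 for *Tnfrsf18* and 0.26 for *Tnfrsf9*, so these values are a description. The genes most like *Tnfrsf18*, by the centred values too, were *Ndufb5* (0.91), *Ogt* (0.91) and *Calr* (0.91), and those most like *Tnfrsf9* were *Fgfr1op2* (0.90), *Gimap4* (0.90) and *H2.Q7* (0.89). *Tnfrsf4* was followed most closely by *Vamp8* (0.96), *Gm4294* (0.94) and the ribosomal protein gene *Rpl38* (0.93). *Tnfrsf1b* had lower values, with *H2.Q6* (0.82), *Vsir* (0.80) and *Ptprcap* (0.80). For *Cd27* they were the T cell surface gene *Cd2* (0.91), *Inpp4b* (0.91) and *Rac2* (0.89). *Tnfrsf1a* paired with *Rdx* (0.78), *Mindy1* (0.76) and *Srgap2* (0.75), and *Tnfrsf25* with *Dlat* (0.79), *Ankrd17* (0.76) and *Sfpq* (0.75). With the number of genes detected, the members had a rho between -0.34 (*Tnfrsf4*) and 0.09 (*Tnfrsf25*).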

How the data were processed

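Treg cells were profiled by Smart-Seq2, and the authors aligned reads to mm10 with TopHat and computed TPM with RSEM, without versions given in the sources used here. The deposited table holds TPM plus 1, a normalized score rather than a count, and 1 was taken off each value. The read depth is unknown, so precision rests on the spread between libraries. Of the columns, 1 has no name and was not used. No 2 libraries were alike (Spearman 0.486 to 0.736 over 351 pairs).

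Log2(TPM + 1) was tested with limma 3.58.1 in R 4.3.3 (intensity trend) where the mean TPM exceeded 10 in 1 or more groups of the fit, with two-sided p-values adjusted by Benjamini-Hochberg over all genes tested. Only the 2 groups compared entered a fit, and all 4 the interaction. For single members an exact permutation test, two-sided, enumerated all assignments of libraries to the 2 groups. Genes named beyond the members are all ligands, adaptors and other receptors past the threshold or otherwise the 3 with the lowest p, and the 3 genes most like each member. Tests were tried on simulated data. Alternatives concerned the pseudocount, filter, scaling, covariates, weights and libraries used. The members and gene lists were chosen with earlier results of these data known. Replicate names are those of the labels, in which a number can recur in both tissues without a stated meaning.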

Additional observations from a re-analysis of the deposited data

Results flagged for a closer look

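Over the 28 combinations of a gene and a group, 1 library stood apart from its group by the spacing of its value. *Tnfrsf25* was listed at 0 TPM in replicate 72_c of splenic Treg cells after αPD1 + αGITR, while the other 7 libraries of the group lay higher. The gap to the next library was 0.576 of the whole range on the log2 scale. The nominal level of the spacing rule is about 1 in 20 groups, a rate that was not measured in these data. No interaction of tissue and treatment was called for any of the 7 genes.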

How the results depend on the processing

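The tissue differences of *Tnfrsf18*, *Tnfrsf9*, *Tnfrsf4* and *Tnfrsf1b* kept their sign in all 25 alternatives after IgG2a and all 28 after αPD1 + αGITR. The cause of each change below was not tested. Of the members, 1 was called after IgG2a. This became 3 with a pseudocount of 10, quantile normalization or all 4 groups in 1 fit, 2 with TMM-type factors, 4 with library weights, 0 without a filter, and 1 to 3 when single libraries were left out (3 without splenic IgG2a replicate 79_b). The genes called higher over the whole table moved as well, from 36 to 64, 58 and 114 in the first 3 of these settings, 32 with TMM-type factors, 215 with library weights and 6 without a filter. Same-labelled libraries of the 2 tissues had correlations of -0.112 to 0.182 over 4 pairs after IgG2a and -0.159 to 0.0895 over 5 pairs after therapy. Pairs with other numbers had -0.188 to 0.178 and -0.156 to 0.214. So few pairs cannot settle whether the label numbers pair the libraries. With the label numbers as a replicate block 0 members were called after IgG2a (*Tnfrsf9* 3.96, limma adjusted p = 0.251) and 4 after therapy. Leaving out low T cell or high macrophage libraries, chosen after seeing the data, left 1 and 4.

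Log2 values that changed sign were as follows. For tissue, *Cd27* after IgG2a came to -0.39 with quantile normalization, -0.11 with TMM-type factors, -0.15 when rescaled without the 10 highest features, -0.47 with library weights and -0.81 without low T cell libraries, and after therapy to -0.14 with TMM-type factors. For treatment in GBM, *Tnfrsf1a* came to -0.22 with quantile normalization and -0.15 with weights, and with TMM-type factors *Tnfrsf18* came to -0.0096, *Tnfrsf9* to -0.21, *Tnfrsf4* to -0.41, *Tnfrsf1b* to -0.14 and *Cd27* to -0.12. For treatment in spleen, a pseudocount of 0.1 gave -0.18 for *Tnfrsf18*, 0.11 for *Tnfrsf1a* and -0.19 for *Tnfrsf25*, and a pseudocount of 10 gave -0.026 for *Cd27*. There *Tnfrsf18*, *Tnfrsf25* and *Cd27* came to -0.018, -0.19 and -0.065 with quantile normalization, to -0.075, -0.11 and -0.12 with TMM-type factors, and to -0.10, -0.10 and -0.033 when rescaled. *Tnfrsf25* came to -0.097 with genes detected as a covariate. *Tnfrsf4*, *Tnfrsf1a* and *Cd27* came to -0.41, 0.14 and -0.56 with weights and to -0.059, 0.0017 and -0.53 without low T cell libraries. For the interaction, *Tnfrsf4* came to 0.11 with a pseudocount of 10, 1.08 with weights and 0.34 without low T cell libraries, *Tnfrsf1a* to -0.034 with quantile normalization and -0.29 with weights, and *Tnfrsf1b* and *Cd27* to -0.30 and -0.013 with TMM-type factors.

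Leaving out single libraries turned 36 of 567 values. For tissue after IgG2a *Tnfrsf1a* ran from -0.12 to 1.503 and *Cd27* from -0.31 to 0.53, and for treatment in GBM *Tnfrsf1a* from -0.47 to 1.00. For treatment in spleen *Tnfrsf18* ran from -0.27 to 0.89, *Tnfrsf4* from -0.43 to 0.90, *Tnfrsf1a* from -0.88 to 0.074, *Tnfrsf25* from -0.57 to 0.76 and *Cd27* from -0.43 to 0.42. For the interaction *Tnfrsf18* ran from -0.20 to 0.96, *Tnfrsf4* from -0.61 to 0.71, *Tnfrsf1b* from -0.035 to 0.34 and *Tnfrsf1a* from -0.22 to 1.40. The read depth is unknown, so what it limits could not be assessed.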
